A study of Mus musculus with 656 samples.

Results

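The genes described are 6 of the 22070 genes counted in the series: Tnfaip3, which encodes the enzyme A20, the genes of 4 proteins that work with A20 (Tnip1, Tnip2, Tax1bp1 and Itch), and Cyld, which encodes another enzyme that removes ubiquitin. They were chosen by name, through the gene identifiers of the count table that carry these symbols, and all 6 were present and passed the filter on low counts that 10766 genes passed. A20 and Cyld act as brakes on NF-κB, the transcription factor that inflammatory cytokines switch on. Receptors for IL-1β and TNF-α signal through chains of ubiquitin built on adaptor proteins, which recruit the kinase IKKβ, and IKKβ marks the NF-κB inhibitor proteins for destruction. A20 edits or removes such chains, and its gene Tnfaip3 is a well known NF-κB target.

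RNA of mouse 3T3 cells, a fibroblast line long kept in culture, was measured by TagSeq, which counts the 3′ ends of transcripts. Treated cells had SC-514, an IKKβ inhibitor, in the medium at 25, 50 or 100 µM for 1 h before a cytokine (1 ng/ml of IL-1β, or TNF-α at a concentration of 10 ng/ml) was added for 15, 30, 60, 120 or 360 min, and the cells set against them had the same cytokine and time at 0 µM. A last group, called unstimulated, had 0 µM SC-514 and no cytokine and was sampled at time 0. Each of the 41 groups had 4 libraries, numbered 1 to 4, and there was no group with SC-514 alone and no unstimulated group at a later time. The labels do not say what vehicle the 0 µM cells received. Nor do they say whether the 4 libraries were grown apart, and the p-values therefore measure the spread between libraries only, which may be technical. The labels also conflict on the cytokine: one and the same column prefix stands for one cytokine in the descriptions and for the other in the titles. The stimulus label was followed, and IL-1β and TNF-α therefore name a label. The column prefix differs between the libraries of the 2 labels and the unstimulated ones, so cytokine and library set cannot be told apart.

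Totals were 928906 to 2469454 counts per library (median 1282459), except for 12191 in number 1 of IL-1β 50 µM at 30 min and 3839 in number 1 of TNF-α 50 µM at 120 min. Levels are in CPM, a gene's counts per 1000000 counts of its library, after scaling of the library sizes (TMM). Means are given ± SD over 4 libraries. The 2 libraries of few counts were left out of the printed means, ranges and plots, so that n = 3 in their groups. They stayed in the tests and in the group means behind correlations. In the other libraries 3 counts were worth 1.22 to 3.23 CPM by the unscaled total, and floors of this kind cover counting error only. Among the libraries of IL-1β with 100 µM, number 1 held counts for more genes than numbers 2 to 4, both at 120 min (14634 against 13198 to 13350) and at 360 min (15303 against 13170 to 13529). All 8 fibroblast markers checked, among them Col1a1, Col1a2, Pdgfra and Thy1, were detected in each of the 162 deep libraries, with a summed level of 4674 to 7968 CPM. The 10 markers of other cell types that were in the table summed to 5.25 to 45.2 CPM, and Adgre1, Cd3e, Cdh5, Epcam, Krt8 and Adipoq, which mark macrophages, T cells, endothelium, epithelium and fat cells, were at 0 in 141 to 161 libraries. The other 4 were found more often: Ptprc, of white blood cells, was at 0 in 74 libraries, the macrophage markers Cd68 and Csf1r in 1 and 2, and the endothelial marker Pecam1 in 0, with medians of 0.644, 4.34, 2.80 and 4.14 CPM. The sum was highest in number 1 of IL-1β 100 µM at 360 min (45.2 CPM), then in unstimulated number 2 (32.0 CPM) and in number 1 of IL-1β 100 µM at 120 min (28.0 CPM). Its median was 9.99 to 14.7 CPM over the libraries of a label and concentration and 19.1 CPM over the unstimulated ones, to which all stimulus comparisons refer. The part of these libraries and markers in the results was not tested, except where a value without them is given.

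The promoters of the members are shown because both Tnfaip3 and Tnip1 rose with either cytokine label while the largest changes of the others were smaller. RefSeq sequences of 250 bases before to 50 after the start (GRCm38.p6) matched 5 members, with 7 windows. Capitals mark matches to the κB consensus, the 10-letter motif bound by NF-κB, searched on both strands.
Tnfaip3, chr10:19015361-19015660, minus strand: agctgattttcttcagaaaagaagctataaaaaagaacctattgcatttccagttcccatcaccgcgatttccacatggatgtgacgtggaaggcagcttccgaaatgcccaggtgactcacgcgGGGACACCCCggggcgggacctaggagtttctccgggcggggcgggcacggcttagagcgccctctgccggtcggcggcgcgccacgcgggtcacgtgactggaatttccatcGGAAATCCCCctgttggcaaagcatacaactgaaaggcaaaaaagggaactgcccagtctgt
Tnip1, chr11:54962891-54963190, minus strand: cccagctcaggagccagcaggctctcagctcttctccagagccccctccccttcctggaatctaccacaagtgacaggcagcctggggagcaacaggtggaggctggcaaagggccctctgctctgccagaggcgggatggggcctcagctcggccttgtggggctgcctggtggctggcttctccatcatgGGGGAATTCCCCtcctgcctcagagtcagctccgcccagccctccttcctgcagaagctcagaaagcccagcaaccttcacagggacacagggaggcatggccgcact
Cyld, chr8:88696778-88697077, plus strand: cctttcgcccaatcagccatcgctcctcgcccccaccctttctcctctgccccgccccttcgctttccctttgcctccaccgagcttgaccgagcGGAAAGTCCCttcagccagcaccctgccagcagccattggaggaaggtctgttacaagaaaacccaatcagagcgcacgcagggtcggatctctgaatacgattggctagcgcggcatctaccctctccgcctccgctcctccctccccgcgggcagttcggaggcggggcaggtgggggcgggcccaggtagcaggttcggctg
The Tnfaip3 window held 2 matches, 125 and 12 bases before the start. The Tnip1 window held 3 that overlap within one stretch, 58, 57 and 56 bases before the start. Cyld had 1 match, 155 bases before the start. A second window of Tax1bp1 (chr6:52713915-52714214, plus strand) had 1 match, 34 bases after the start. The first Tax1bp1 window (chr6:52713479-52713778, plus strand), a second Tnfaip3 window (chr10:19011914-19012213, minus strand) and the Tnip2 window (chr5:34513930-34514229, minus strand) had no match to these letters. Of 32851 mouse promoter windows of 300 bases, 4.51% held 1 or more matches, 0.554% held 2 or more and 0.0517% held 3 or more. A match is a string of letters and was not tested as a site.

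Tnfaip3 (chromosome 10, 19000910 to 19015657, minus strand of GRCm38, protein-coding), the A20 gene, rose with either label from 30 min and peaked at 60 min. At 60 min the 4 libraries labelled IL-1β had 396, 348, 368 and 330.3 CPM and those labelled TNF-α had 553, 571, 553 and 606 CPM. The unstimulated libraries had 5.77, 2.59, 5.05 and 6.45 CPM, a mean of 4.97 ± 1.68 CPM from 25 counts in all. No stimulated library came near the unstimulated ones at this time, and no library of one label reached the range of the other. Over 15, 30, 60, 120 and 360 min at 0 µM the group means were 6.87 ± 2.11, 29.5 ± 8.49, 361 ± 28.4, 145 ± 37.4 and 58.2 ± 16.7 CPM with the IL-1β label and 8.14 ± 1, 43.4 ± 12.3, 571 ± 24.9, 81.0 ± 12.1 and 7.34 ± 4.46 CPM with the TNF-α label. Against the unstimulated group the 60 min level was 70.5-fold higher with IL-1β (log2 change 6.14, SE 0.27, adjusted p = 1.08e-42) and 111-fold higher with TNF-α (log2 change 6.80, SE 0.26, adjusted p = 5.47e-49). The unstimulated level rests on few counts, which limits the precision of these folds.

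The labels, which already differed at the peak, differed most at 360 min. At 360 min Tnfaip3 had 77.9, 51.1, 64.4 and 39.3 CPM in the libraries labelled IL-1β, all above the unstimulated ones (log2 change 3.51, SE 0.36, adjusted p = 2.76e-15). With TNF-α it had 12.9, 2.01, 6.80 and 7.64 CPM, which overlapped the unstimulated libraries (log2 change 0.59, SE 0.57, adjusted p = 0.643). The fall at 360 min relative to 60 min had a log2 change of -2.63 (SE 0.18, adjusted p = 2.25e-26) with IL-1β and -6.21 (SE 0.25, adjusted p = 3.08e-46) with TNF-α. At 30 min the rise was already called in either label, with log2 changes of 2.53 and 3.09, and at 120 min they were 4.83 and 3.98. At 15 min the log2 changes of 0.44 and 0.69 did not pass the test (adjusted p = 0.845 and 0.65), with intervals of 2 SE that reached 1.57 and 1.78.

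Set directly against each other at 0 µM, the labels ordered Tnfaip3 differently by time. IL-1β libraries were lower than TNF-α libraries at 60 min (log2 change -0.66, SE 0.14, adjusted p = 0.00159). At 120 min they were higher, with 189, 115, 164 and 113 CPM against 86.9, 89.3, 63.1 and 84.7 CPM (log2 change 0.84, SE 0.18, adjusted p = 0.00248), and at 360 min the gap was widest (log2 change 2.91, SE 0.34, adjusted p = 8.74e-12). The 60 min call was lost without library number 4 (adjusted p = 0.0818) and with DESeq2 (0.216). The 120 min call was lost without library number 1 or 3 (adjusted p = 0.0953 and 0.174) and with DESeq2 (0.129). The 360 min call kept its side of 0.05 in all 11 alternatives.

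Tnip1 (chromosome 11, 54910785 to 54962917, minus strand, protein-coding) encodes ABIN-1, an adaptor that binds ubiquitin chains and brings A20 to them. It was first called at 60 min and rose from a level that was already readily counted. The unstimulated libraries had 41.1, 52.7, 39.6 and 44.3 CPM. Group means at 15, 30, 60, 120 and 360 min were 47.2 ± 4.03, 45.5 ± 4.60, 84.1 ± 15.1, 255 ± 35.4 and 278 ± 36.4 CPM with IL-1β and 46.2 ± 4.46, 50.7 ± 4.28, 99.8 ± 16.6, 268 ± 10.3 and 64.0 ± 7.53 CPM with TNF-α. At 15 and 30 min the log2 changes lay between 0.04 and 0.19 and passed no test. At 60 min IL-1β libraries had 105.3, 84.6, 71.7 and 75.0 CPM and TNF-α libraries 109.9, 115, 96.7 and 77.7 CPM, all above the unstimulated ones, with log2 changes of 0.93 (SE 0.14, adjusted p = 2.28e-08) and 1.18 (SE 0.14, adjusted p = 1.14e-12). At 120 min the labels gave 5.75-fold and 6.05-fold rises, and their log2 difference was -0.07 with an interval of 2 SE of -0.27 to 0.12.

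Tnip1 parted by label at 360 min. Libraries labelled IL-1β then had 289, 303, 224 and 296 CPM and those labelled TNF-α 58.8, 57.4, 73.8 and 65.9 CPM, with no overlap (log2 difference 2.12, SE 0.12, adjusted p = 1.18e-36). Relative to 60 min, Tnip1 rose at 360 min of IL-1β by 1.72 on the log2 scale (SE 0.11, adjusted p = 8.54e-32) and fell at 360 min of TNF-α (log2 change -0.65, SE 0.13, adjusted p = 0.000128). All 4 TNF-α libraries at 360 min were still above the unstimulated ones (log2 change 0.53, SE 0.15, adjusted p = 0.0158), a call that was lost without library number 3 or 4 (adjusted p = 0.259 and 0.0872) and with DESeq2 (0.0646). At 360 min of IL-1β, then, Tnfaip3 was below its 60 min level and Tnip1 above its own. Over the 41 group means the log2 levels of Tnip1 and Tnfaip3 had a Pearson correlation of 0.40, a description of groups that share stimuli and times.

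**Figure D1:**
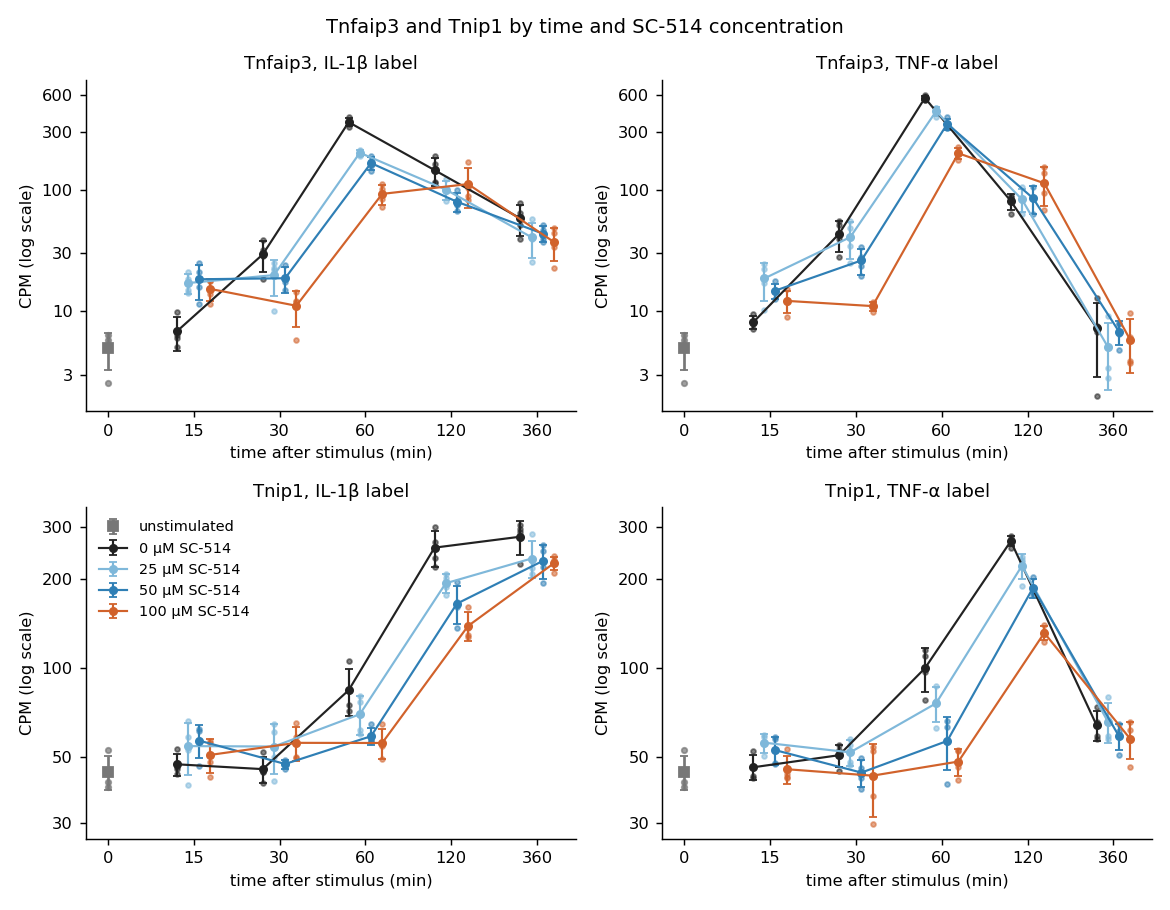
Tnfaip3 (top) and Tnip1 (bottom) in CPM on a log scale against time after the stimulus, with the IL-1β label on the left and the TNF-α label on the right. Small points are libraries, larger points with bars are mean ± SD (n = 4, or 3 in the groups with a library of few counts), the grey square is the unstimulated group and colours are SC-514 concentrations. Without SC-514, Tnfaip3 peaked at 60 min and Tnip1 at 120 or 360 min.

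The other members moved little after either cytokine label. Tax1bp1 (chromosome 6, 52713729 to 52766780, plus strand, protein-coding) encodes an adaptor that couples A20 to its ubiquitinated substrates. Its unstimulated libraries had 268, 289.6, 283 and 304 CPM, the lowest group mean of all 41 at 286 ± 14.8 CPM. At 120 min of TNF-α it had 384, 335, 322 and 367 CPM, all above the unstimulated libraries (log2 change 0.30, SE 0.06, adjusted p = 3.99e-05). Group means over the 5 times were 331 ± 14.9, 309 ± 13.1, 309 ± 16.8, 316 ± 11.8 and 329.9 ± 4.23 CPM with IL-1β and 319.9 ± 15.6, 317 ± 29.5, 330.1 ± 5.03, 352 ± 28.5 and 325 ± 15.4 CPM with TNF-α. Rises at 360 min of IL-1β, by 0.21 on the log2 scale (SE 0.06, adjusted p = 0.00693), and at 60 min of TNF-α (log2 change 0.21, SE 0.06, adjusted p = 0.0223) were called too. The first was lost without library number 1 or 3 (adjusted p = 0.0709 and 0.0572), with DESeq2 (0.121), with RLE size factors (0.0745) and without the filter on low counts (0.114). The second was lost without library number 1, 2, 3 or 4 (adjusted p = 0.176, 0.131, 0.117 and 0.0881), with DESeq2 (0.22), with RLE size factors (0.125), without the filter on low counts (0.285) and in a fit of the compared groups alone (0.101). At 15 min of IL-1β the log2 change of Tax1bp1 was also 0.21 (SE 0.06) and was not called (adjusted p = 0.122). All libraries lay above the unstimulated ones at 15 and 360 min of either label and at 60 and 120 min of TNF-α.

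Cyld (chromosome 8, 88697028 to 88751945, plus strand, protein-coding), a tumour suppressor gene whose product takes ubiquitin chains off several signalling adaptors, was called at 360 min of IL-1β and in no other stimulus comparison. It had 53.9, 53.6, 42.7 and 46.8 CPM there, against 40.4, 36.3, 26.9 and 33.1 CPM in unstimulated libraries (log2 change 0.52, SE 0.16, adjusted p = 0.0079), with no overlap. The level there was also higher than at 60 min of IL-1β, where number 1 overlapped it, by 0.57 on the log2 scale (SE 0.15, adjusted p = 0.00322), and than at 360 min of TNF-α (log2 change 0.52, SE 0.16, adjusted p = 0.0219). The call against the unstimulated group was lost without library number 3 (adjusted p = 0.0518) and with DESeq2 (0.0637), the one against 60 min without library number 2 (adjusted p = 0.08), and the one against TNF-α without library number 1, 2 or 3 (adjusted p = 0.21, 0.0576 and 0.088) and with DESeq2 (0.0889). At the other times of IL-1β and at all times of TNF-α means lay between 30.6 and 41.8 CPM, and no test was passed.

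Itch (chromosome 2, 155133509 to 155226855, plus strand, protein-coding) encodes a ubiquitin ligase of the HECT class that takes part in the A20 complex. Its means over the 5 times were 87.7 ± 10.5, 87.1 ± 5.03, 88.3 ± 13.7, 79.8 ± 6.33 and 84.4 ± 8.62 CPM with IL-1β and 93.1 ± 12.7, 95.0 ± 5.55, 86.9 ± 2.77, 95.2 ± 8.72 and 89.8 ± 5.16 CPM with TNF-α, against 80.8 ± 10.6 CPM in unstimulated cells. Tnip2 (chromosome 5, 34496087 to 34513991, minus strand, protein-coding) encodes ABIN-2, which also binds A20 and holds the kinase TPL2. Its means were 16.6 ± 5.68, 14.7 ± 1.12, 18.5 ± 5.24, 16.6 ± 5.88 and 12.3 ± 3.39 CPM and 19.3 ± 1.92, 14.0 ± 3.36, 20.5 ± 3.81, 17.7 ± 4.95 and 13 ± 3.70 CPM, against 15.3 ± 3.61 CPM. No stimulus comparison called either gene. Their log2 changes ran from -0.02 to 0.23 for Itch and from -0.33 to 0.39 for Tnip2. Tnip2 had 55 to 142 counts over the libraries of a group, which leaves wide intervals. At 60 min of TNF-α the interval of 2 SE for Tnip2 was -0.10 to 0.88.

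Of the 6 members, 1, 2, 2 and 4 were called at 30, 60, 120 and 360 min of IL-1β, where the test called 0.957%, 3.36%, 12.5% and 21.7% of the 10766 genes. For TNF-α it was 1, 3, 3 and 1 member, beside 0.659%, 5.41%, 14.2% and 5.42% of genes. All of these calls were rises. At 15 min edgeR called 0 members in either label, beside 0.167% and 0.186% of genes. An unadjusted p under 0.05 was reached there by 1 member in each label, Tax1bp1, and DESeq2 called 0. Between 360 and 60 min 3 members were called in IL-1β (2 higher, 1 lower) and 2 in TNF-α (both lower), beside 14.2% and 5.92% of genes. Between the labels 1, 1 and 3 members were called at 60, 120 and 360 min, beside 1.26%, 1.02% and 9.46% of genes. At 15 and 30 min 0 members were called between the labels by edgeR or DESeq2, with 0 and 1 at an unadjusted p under 0.05, beside 0.0372% and 0.186% of genes. The 4 members called at 360 min of IL-1β stand beside the largest share of genes called in any of the 10 stimulus comparisons.

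**Figure D2:**
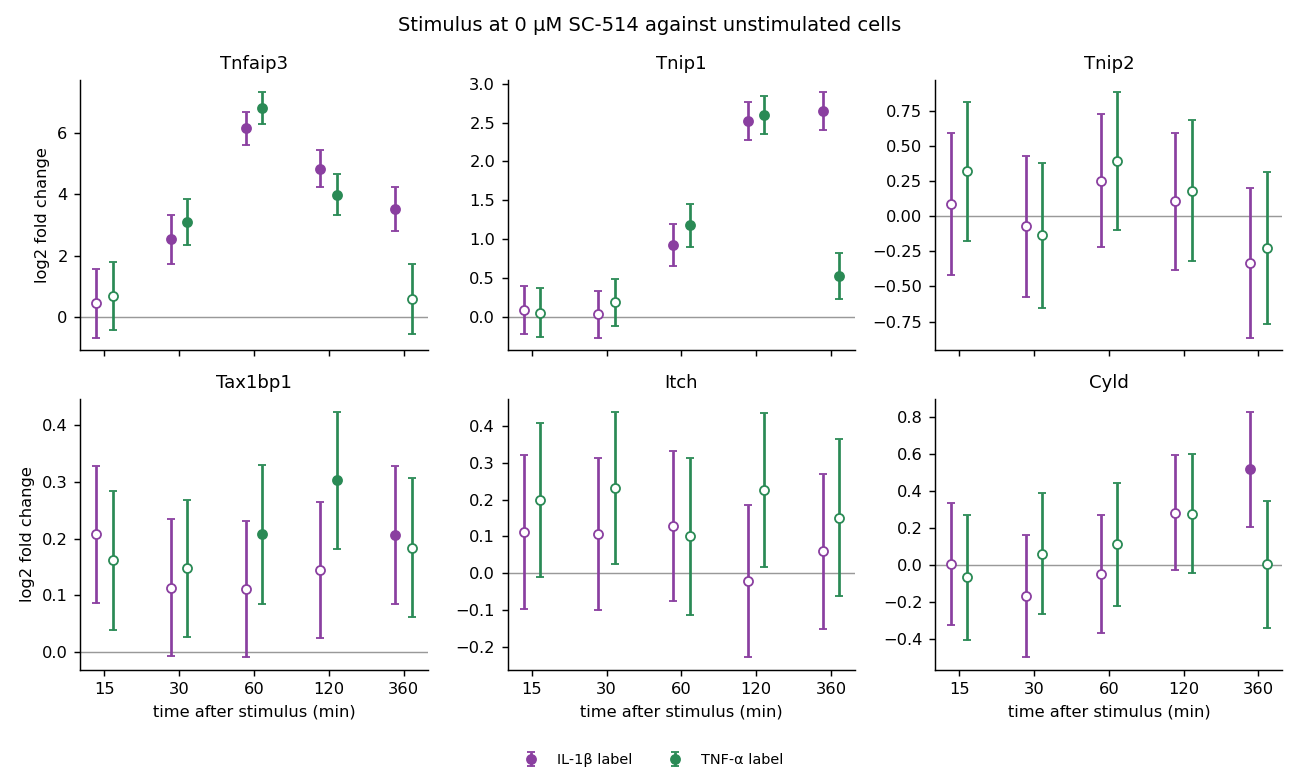
Log2 fold changes of the 6 members at 0 µM SC-514 against the unstimulated group, by time after the stimulus, for the IL-1β and TNF-α labels. Bars are 2 standard errors either side, filled points have an adjusted p under 0.05 and each panel has its own vertical scale. The largest changes are those of Tnfaip3 and Tnip1.

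SC-514 lowered the 60 min peak of Tnfaip3 with either label and did not abolish it. At 60 min of IL-1β the means were 361 ± 28.4 CPM at 0 µM, 202 ± 11 at 25 µM, 166 ± 20.7 at 50 µM and 92.7 ± 17.5 CPM at 100 µM. At 60 min of TNF-α they were 571 ± 24.9, 443 ± 35.4, 349 ± 37.0 and 200.01 ± 19.5 CPM over the same concentrations. Single libraries at 100 µM had 102, 112, 84.1 and 73.0 CPM with IL-1β and 224, 200.3, 176 and 200.02 CPM with TNF-α. At each of the 3 concentrations all 4 libraries lay below all 4 at 0 µM. The rise over the unstimulated mean that was left at 25, 50 and 100 µM was 55.4%, 45.3% and 24.7% with IL-1β and 77.4%, 60.9% and 34.5% with TNF-α. The log2 change of 100 against 0 µM was -1.95 (SE 0.16, adjusted p = 1.35e-19) with IL-1β and -1.51 (SE 0.15, adjusted p = 3.26e-16) with TNF-α. In bulk RNA fewer responding cells and less RNA per cell cannot be told apart.

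At other times the difference of Tnfaip3 between 100 and 0 µM took other sizes and signs. At 30 min 100 µM libraries had 12.1, 12, 5.83 and 14.6 CPM, against 38.8, 32.1, 28.6 and 18.4 CPM at 0 µM of IL-1β (log2 change -1.38, SE 0.35, adjusted p = 0.00133). With TNF-α they had 12, 11.4, 11 and 9.82 CPM, against 39.6, 27.8, 55.2 and 51.1 CPM (log2 change -1.96, SE 0.31, adjusted p = 3.12e-07). The groups did not overlap in either label. At 120 min, by contrast, the TNF-α libraries at 100 µM had 93.9, 67.7, 154 and 138 CPM, against 86.9, 89.3, 63.1 and 84.7 CPM at 0 µM, and overlapped them. The higher level was called (log2 change 0.51, SE 0.18, adjusted p = 0.0237) and the call was lost without library number 3 or 4 (adjusted p = 0.525 and 0.152), with DESeq2 (0.108) and in a fit of the compared groups alone (0.226). Without number 3 the log2 change was 0.22. With IL-1β at 120 min the 100 µM libraries had 89.2, 171, 83.2 and 104 CPM, against 189, 115, 164 and 113 CPM (log2 change -0.37, SE 0.18, adjusted p = 0.106). The difference passed with all libraries when low counts were not filtered (log2 change -0.39, adjusted p = 0.00451). Number 2 was the highest of the 100 µM libraries, and without number 2 the log2 change was -0.75 (adjusted p = 0.000812).

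The time of the highest Tnfaip3 mean was 60 min in 7 of the 8 series of label and concentration, and 120 min at 100 µM of IL-1β. The 120 min mean of that exception was raised by library number 2, while numbers 1, 3 and 4 lay at 120 min within the range of the 60 min libraries. The ratio of the 120 min to the 60 min mean was 0.403, 0.498, 0.481 and 1.2 at 0, 25, 50 and 100 µM of IL-1β and 0.142, 0.189, 0.244 and 0.567 with TNF-α. These ratios are a description without a test of their own. At 360 min the 100 µM level was lower than at 0 µM of IL-1β, 44.4, 22.8, 33.6 and 48.3 against 77.9, 51.1, 64.4 and 39.3 CPM (log2 change -0.65, SE 0.24, adjusted p = 0.03), with overlap. That call was lost without library number 1, 2 or 3 (adjusted p = 0.18, 0.0764 and 0.16), with DESeq2 (0.14), with RLE size factors (0.0671) and in a fit of the compared groups alone (0.076). With TNF-α at 360 min Tnfaip3 averaged 5.85 ± 2.74 CPM at 100 µM and 7.34 ± 4.46 CPM at 0 µM, from 47 and 33 counts (adjusted p = 0.611).

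At 15 min, when neither cytokine label at 0 µM had moved Tnfaip3 past the test, its mean was higher with SC-514 than without at each of the 3 concentrations of either label. With IL-1β it averaged 6.87 ± 2.11 CPM at 0 µM, 17.1 ± 3.09 at 25 µM, 18.4 ± 5.92 at 50 µM and 15.3 ± 3.17 CPM at 100 µM. With TNF-α it averaged 8.14 ± 1, 18.7 ± 6.44, 14.9 ± 2.12 and 12.2 ± 2.59 CPM. All libraries at 25, 50 and 100 µM of IL-1β and at 25 and 50 µM of TNF-α lay above those at 0 µM, while 1 of the 4 at 100 µM of TNF-α did not. The 100 µM difference was called with IL-1β (log2 change 1.14, SE 0.43, adjusted p = 0.0387) and not with TNF-α (log2 change 0.56, SE 0.43, adjusted p = 0.378). The IL-1β call was lost without library number 1, 3 or 4 (adjusted p = 0.197, 0.166 and 0.051). These levels come from 34 and 38 counts per group at 0 µM and 72 to 94 with SC-514. Since no group had SC-514 without a cytokine, an effect on the resting level cannot be told apart from one on the first minutes of the response.

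Tnip1 was held down by SC-514 at 60 and 120 min with either label. At 120 min of IL-1β libraries at 100 µM had 137, 129.7, 127 and 161 CPM, against 299.6, 236, 219 and 267 CPM at 0 µM (log2 change -0.88, SE 0.11, adjusted p = 2.90e-12). At 120 min of TNF-α they had 129.9, 134, 123 and 139.5 CPM, against 269, 280.3, 269 and 255 CPM (log2 change -1.03, SE 0.10, adjusted p = 3.77e-17). No library at 25, 50 or 100 µM reached the 0 µM range at 120 min. The means fell in the order of concentration, with 255 ± 35.4, 193 ± 14.0, 165 ± 23.7 and 139 ± 15.6 CPM at 0, 25, 50 and 100 µM of IL-1β, and 268 ± 10.3, 222 ± 21.9, 187 ± 13.8 and 131 ± 7.07 CPM with TNF-α. At 60 min the log2 change of 100 against 0 µM was -0.61 (adjusted p = 0.000103) with IL-1β and -1.05 (adjusted p = 1.29e-11) with TNF-α.

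By 360 min of IL-1β most of the Tnip1 rise was present at every concentration. The means were 278 ± 36.4, 235 ± 33.6, 230.1 ± 29.7 and 226 ± 12.1 CPM at 0, 25, 50 and 100 µM, and 77.8% of the rise was left at 100 µM, against 44.7% at 120 min and 28.5% at 60 min. The 100 µM difference at 360 min was small and called (log2 change -0.30, SE 0.10, adjusted p = 0.015), and it was lost without library number 2 or 4 (adjusted p = 0.0691 and 0.11), with DESeq2 (0.151) and with RLE size factors (0.0948). With TNF-α 38.8% of the rise was left at 120 min and 6.89% at 60 min of 100 µM. At 360 min of TNF-α, when the gene at 0 µM was 1.44-fold above its unstimulated level, 100 and 0 µM differed by -0.15 on the log2 scale (adjusted p = 0.452). At 15 and 30 min no difference of Tnip1 between 100 and 0 µM passed the test. The log2 changes were 0.11 and 0.30 with IL-1β and -0.02 and -0.23 with TNF-α.

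Levels under 100 µM SC-514 at 60 min were also set against the unstimulated cells. Since no group had SC-514 alone, what remained of the response cannot be told apart here from an effect of SC-514 itself. Tnfaip3 was 18.2-fold higher with IL-1β (log2 change 4.18, SE 0.32, adjusted p = 1.16e-21) and 39.1-fold higher with TNF-α (log2 change 5.29, SE 0.28, adjusted p = 2.38e-34). Tnip1, with 49.2, 54.3, 64.5 and 55.1 CPM and 46.2, 52.7, 42.0 and 52.3 CPM in the 2 labels, overlapped the unstimulated libraries and passed neither test (adjusted p = 0.112 and 0.586). Tax1bp1 was higher with TNF-α and 100 µM than in unstimulated cells (log2 change 0.33, SE 0.06, adjusted p = 3.60e-06). Itch with IL-1β passed without number 3 (adjusted p = 0.0353, against 0.114 with all libraries), and Cyld with TNF-α without number 1 (0.034, against 0.158). With all libraries 1 member was called with IL-1β and 2 with TNF-α, beside 22.2% and 23.1% of genes.

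For 25 and 50 µM each label had 1 F test over the 5 times together. Tnfaip3 was called in all 4 tests. At 25 µM its log2 changes at 15, 30, 60, 120 and 360 min were 1.30, -0.55, -0.84, -0.53 and -0.51 with IL-1β (adjusted p = 3.95e-08) and 1.21, -0.06, -0.37, 0.05 and -0.51 with TNF-α (adjusted p = 0.0341). At 50 µM they were 1.41, -0.60, -1.11, -0.85 and -0.41 with IL-1β (adjusted p = 1.69e-12) and 0.86, -0.74, -0.71, 0.07 and -0.16 with TNF-α (adjusted p = 2.93e-05). The signs were thus positive at 15 min and negative at 30 and 60 min in all 4 series. Tnip1 was called in all 4 as well, and at 25 µM of TNF-α it had 0.28, 0.03, -0.40, -0.28 and 0.05 (adjusted p = 0.00805). In the other series its 15 min change was positive too. It was 0.22 and 0.27 at 25 and 50 µM of IL-1β and 0.19 at 50 µM of TNF-α. That time was not tested alone at these concentrations. Tax1bp1 was called with TNF-α at 25 µM (0.09, 0.24, 0.15, 0.09 and 0.06, adjusted p = 0.000948) and at 50 µM (0.20, 0.10, 0.15, 0.00 and 0.06, adjusted p = 0.00547), with all 5 changes positive.

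Of the 6 calls with TNF-α, those of Tnfaip3 and Tnip1 at 50 µM held in all 11 alternatives and the other 4 did not. At 25 µM that of Tnfaip3 was lost without library number 1, 3 or 4 (adjusted p = 0.139, 0.119 and 0.352), with DESeq2 (0.0715) and with RLE size factors (0.051), that of Tnip1 without library number 2 (adjusted p = 0.0634), and that of Tax1bp1 without library number 3 or 4 (adjusted p = 0.0935 and 0.0701) and without the filter on low counts (0.0525). The Tax1bp1 call at 50 µM was lost without library number 2 (adjusted p = 0.0728) and without the filter on low counts (0.0954). Members called were 2 at 25 µM and 2 at 50 µM of IL-1β, beside 28.7% and 40% of all genes, and 3 and 3 with TNF-α, beside 23.8% and 35.9%.

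Among Tnip2, Tax1bp1, Itch and Cyld, 100 µM SC-514 gave 3 calls, all with IL-1β. Cyld at 60 min had 45.2, 44.7, 42.0 and 44.1 CPM at 100 µM, against 45.2, 28.8, 27.6 and 30.3 CPM at 0 µM (log2 change 0.41, SE 0.15, adjusted p = 0.0361). Number 1 at 0 µM lay within the 100 µM range and the other 3 below it. At 30 min of IL-1β the log2 change of Cyld was 0.40 (SE 0.17) and was not called (adjusted p = 0.0659). The libraries at 50 and 100 µM all lay above those at 0 µM there, with the library of few counts left out. At 360 min Cyld was lower, with 46.1, 28.1, 25.2 and 46.4 CPM at 100 µM, against 53.9, 53.6, 42.7 and 46.8 CPM (log2 change -0.44, SE 0.16, adjusted p = 0.023), and 2 of the 100 µM libraries lay within the 0 µM range. The 60 min call was lost without library number 2, 3 or 4 (adjusted p = 0.18, 0.137 and 0.116), with DESeq2 (0.0652) and without the filter on low counts (0.0919). The 360 min call was lost without library number 2 or 3 (adjusted p = 0.23 and 0.159), with DESeq2 (0.143), with RLE size factors (0.0808) and in a fit of the compared groups alone (0.0946).

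Itch at 120 min of IL-1β had 118, 98.2, 94.2 and 88.6 CPM at 100 µM, against 72.6, 78.5, 80.0 and 88.0 CPM at 0 µM (log2 change 0.32, SE 0.10, adjusted p = 0.0107). The 4 libraries at 100 µM lay above those at 0 µM, and the highest was number 1, the one with counts for more genes and 28.0 CPM of markers of other cell types. The call was lost without library number 1 (adjusted p = 0.26), without the filter on low counts (0.0969) and without the libraries that stood apart (0.146). Tax1bp1 averaged 358 ± 21.6 CPM at 100 µM and 330.1 ± 5.03 CPM at 0 µM at 60 min of TNF-α, a log2 difference of 0.12 (adjusted p = 0.138). Over the 5 times of 100 µM its means were 325 ± 8.47, 331 ± 19.5, 315 ± 3.42, 329.6 ± 32.6 and 300.1 ± 11.9 CPM with IL-1β and 355 ± 16.8, 347 ± 15, 358 ± 21.6, 373 ± 9.36 and 334 ± 19.8 CPM with TNF-α. At 360 min of IL-1β all Tax1bp1 libraries at 25, 50 and 100 µM lay below those at 0 µM. The log2 change at 100 µM was -0.14 there (SE 0.06) and was not called (adjusted p = 0.0793). The Tax1bp1 difference of 100 µM at 60 min of TNF-α was called higher with RLE size factors (adjusted p = 0.00793) and DESeq2 (0.0124), which scale libraries differently. With RLE size factors it was called higher at 15, 30, 120 and 360 min of TNF-α too (adjusted p = 0.00139, 0.0297, 0.0431 and 0.0209). DESeq2 called it at 15 and 360 min as well (adjusted p = 0.00282 and adjusted p = 0.0332). At 15 min it also passed with TMM once the 2 libraries of few counts were left out (adjusted p = 0.0366) and once the 2 libraries with more genes were left out too (adjusted p = 0.0385), against 0.0554 with all libraries. Cyld at 15 min of TNF-α passed with RLE size factors (adjusted p = 0.0368, against 0.0981). RLE size factors shifted the median log2 change of all genes in these 5 comparisons by 0.04 to 0.13. Tnip2 averaged 20.02 ± 2.48, 20.6 ± 4.77, 18.4 ± 1.75, 17.8 ± 4.82 and 18.3 ± 4.20 CPM with IL-1β and 18.4 ± 2.42, 19.4 ± 3.50, 20.4 ± 4.38, 18 ± 3.76 and 17.6 ± 5.37 CPM with TNF-α at 100 µM. It was called in 0 of its 34 tests by edgeR and by DESeq2, with 4 at an unadjusted p under 0.05. Its 100 µM difference at 360 min passed with IL-1β without number 1 (log2 change 0.79, adjusted p = 0.0462, against 0.57 and 0.0872 with all libraries), with RLE size factors (adjusted p = 0.0424) and without the libraries that stood apart (adjusted p = 0.0463). With TNF-α it passed without number 4 (0.70 and 0.0468, against 0.41 and 0.219). At 25 and 50 µM group means lay between 13.3 and 19.7 CPM for Tnip2, 308.6 and 374.6 CPM for Tax1bp1, 77.3 and 98.3 CPM for Itch and 33.7 and 46.4 CPM for Cyld.

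For 100 against 0 µM the members called at 15, 30, 60, 120 and 360 min of IL-1β were 1, 1, 3, 2 and 3, where 24.8%, 22.5%, 25.9%, 30.4% and 29.5% of all genes were called. With TNF-α 1, 2 and 2 were called at 30, 60 and 120 min, beside 17.9%, 22% and 26.5% of genes. At 15 and 360 min of TNF-α edgeR called 0, with 2 and 0 at an unadjusted p under 0.05, and DESeq2 called 1 each, beside 22.2% and 26.8% of genes. The 2 called by DESeq2 were both Tax1bp1. In all, 15 of these 60 tests of members were called, a share near that of all genes. The calls were unevenly spread: 3 were of Cyld and Itch, and all others were of Tnfaip3 and Tnip1. Whether the 100 µM effect differed between the labels was tested over the 5 times together. edgeR called 0 members and DESeq2 0, with 2 at an unadjusted p under 0.05, beside 4.68% of genes. Tnfaip3 had an adjusted p of 0.0666, with differences in log2 change, IL-1β minus TNF-α, of 0.58, 0.58, -0.44, -0.88 and -0.26 at the 5 times. It passed without number 2 (0.00012), with RLE size factors (0.045) and without the filter on low counts (8.17e-08).

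**Figure D3:**
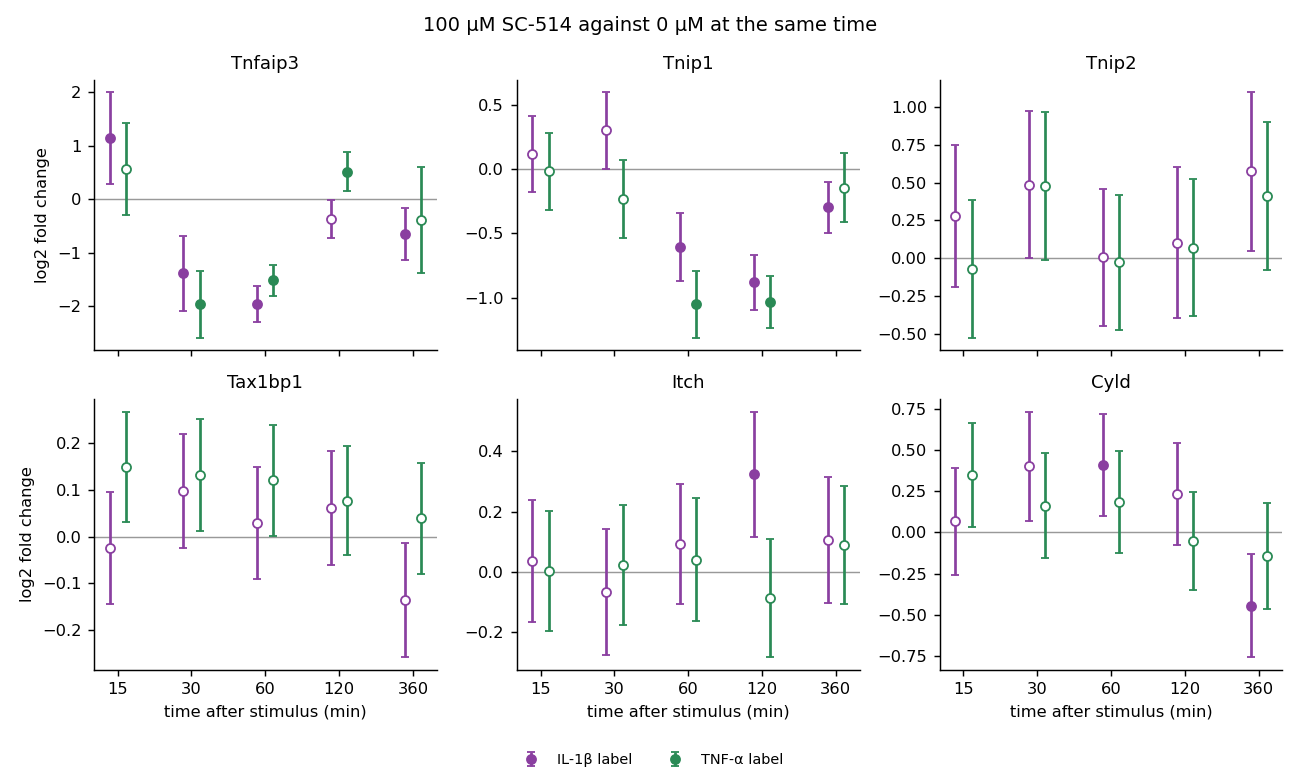
Log2 fold changes of the 6 members at 100 µM SC-514 against 0 µM, by time after the stimulus, for the IL-1β and TNF-α labels. Bars are 2 standard errors either side, filled points have an adjusted p under 0.05 and each panel has its own vertical scale. Tnfaip3 was lower at 30 and 60 min and Tnip1 at 60 and 120 min in either label.

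**Figure D4:**
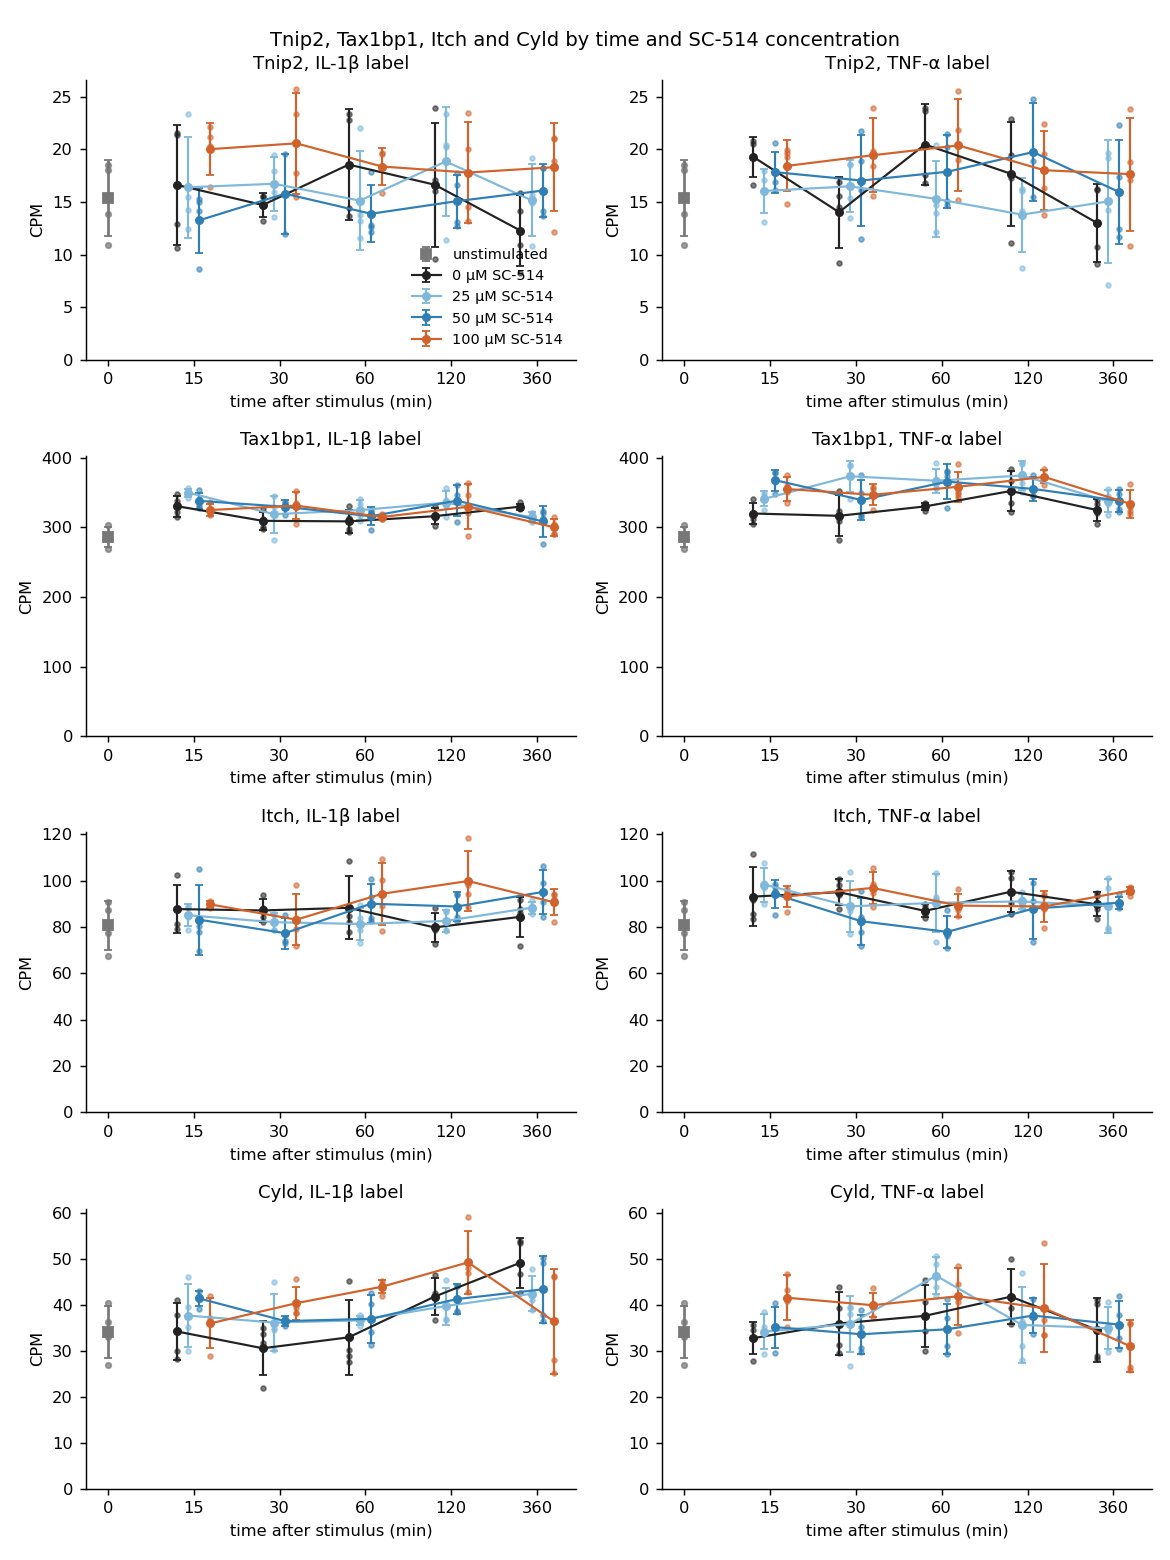
Tnip2, Tax1bp1, Itch and Cyld in CPM against time after the stimulus, with the IL-1β label on the left and the TNF-α label on the right. Small points are libraries, larger points with bars are mean ± SD (n = 4, or 3 in the groups with a library of few counts), the grey square is the unstimulated group, colours are SC-514 concentrations and axes start at 0. For each gene the highest group mean is at most 1.68 times the lowest.

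The range over all 41 group means sets the members apart. The highest mean was 115 times the lowest for Tnfaip3 and 6.43 times for Tnip1, but 1.68, 1.61, 1.31 and 1.29 times for Tnip2, Cyld, Tax1bp1 and Itch. The Tnfaip3 order began with TNF-α at 60 min, where 0 µM was followed by 25 µM, then by 0 µM of IL-1β, which overlapped 50 µM of TNF-α. Next came IL-1β at 25 µM and TNF-α at 100 µM, both at 60 min and overlapping. Neighbouring groups in this order overlapped in 36 of 40 pairs, and the unstimulated group was the lowest. For Tnip1 the 12 highest means were the 120 min groups of either label and the 360 min groups of IL-1β, at all concentrations. Its neighbours overlapped in 39 of 40 pairs, the exception being the step below these 12, which separated 131 CPM at 120 min of TNF-α with 100 µM from 99.8 CPM at 60 min of TNF-α with 0 µM. For Tnip2, Tax1bp1, Itch and Cyld all 40 pairs overlapped.

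The genes whose log2 group means followed Tnfaip3 most closely, by Pearson correlation over the 41 groups among 10422 genes, were Csf2 (0.97), Nfkbia (0.94), Adm (0.93), Lif (0.92) and Irf1 (0.91). Csf2 and Lif encode cytokines, Nfkbia the NF-κB inhibitor IκBα, Adm a peptide hormone and Irf1 a transcription factor. For Tnip1 they were Acod1 (0.96), Jak2 (0.95), Gch1 (0.94), Slc7a2 (0.93) and Plscr1 (0.93). Acod1 makes itaconate, Jak2 is a cytokine receptor kinase, Gch1 starts tetrahydrobiopterin synthesis, Slc7a2 carries cationic amino acids and Plscr1 is a scramblase of membrane lipids. Without the 2 libraries of few counts 4 of the 5 genes for Tnfaip3 and all 5 for Tnip1 were again the closest. For Tax1bp1 the closest reached 0.799, and for Cyld, Itch and Tnip2 0.725, 0.709 and 0.672, of which 1, 1 and 2 of 5 names stayed without those libraries. The groups share stimuli, times and libraries, and the correlations are descriptions.

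Of 23 other genes of ubiquitin-dependent NF-κB signalling, 1 rose and 0 fell at 60 min in either label. It was Birc3, which encodes the ubiquitin ligase cIAP2 and averaged 55.2 ± 11.5 CPM with IL-1β and 59.0 ± 12.1 CPM with TNF-α, against 28.6 ± 8.15 CPM unstimulated (log2 changes 0.95 and 1.05). The list's median log2 change was 0.046 and 0.069, and that of all genes -0.0012 and 0.0033. The genes that rose at 120 min numbered 3 with IL-1β and 7 with TNF-α. Of all 10766 genes 880 and 984 rose there, and 12.5% and 14.2% were called in either direction. By 360 min 7 and 1 of the list rose, beside 1320 and 390 of all genes, with 21.7% and 5.42% called in either direction. None of the list fell in any of the 10 stimulus comparisons. The 3 at 120 min of IL-1β, named after their values were seen, were Birc2, which encodes cIAP1 (1.56), Birc3 (1.28) and the ligase gene Traf6 (0.71). The 1 at 360 min of TNF-α was Rnf11, whose product belongs to the A20 complex (0.40).

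Under 100 µM SC-514 at 60 min 7 of the 23 genes were higher and 4 lower with IL-1β, and 3 higher and 5 lower with TNF-α, beside the 25.9% and 22% of all genes called there. Lower in either label was Tnip3, which encodes the third ABIN protein, with -1.19 for IL-1β and -1.46 for TNF-α. It averaged 5.46 ± 2.63 CPM at 100 µM and 12.2 ± 3.23 CPM at 0 µM of IL-1β, and was called lower in all 10 comparisons of 100 with 0 µM. Birc3 (-0.71 and -0.73), Ube2n, the gene of a ubiquitin-conjugating enzyme (-0.33 and -0.35), and Rnf11 (-0.30 and -0.32) were also lower in either label. Ube2v1, the partner of Ube2n, was lower with TNF-α (-0.34). Higher in either label were Optn, the gene of a ubiquitin-binding adaptor (0.59 and 0.46), and Rbck1, which encodes a part of the linear ubiquitin ligase (0.32 and 0.34). Rnf31 and Sharpin, which encode the other parts of that ligase (1.00 and 0.47), and Spata2, whose product links Cyld to it (0.58), were called higher with IL-1β, and the ligase gene Peli1 with TNF-α (0.55). These values are log2 changes, and the list's median was 0.076 with IL-1β and 0.083 with TNF-α, where all genes had 0.0088 and 0.0074.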

How the data were processed

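Values are whole-number 3' TagSeq counts per gene in 164 libraries, as deposited by the authors, with 4 sample records per library. Reads were aligned with Bowtie2 to GRCm38 (mm10), per the submitters' processing notes, while counting tool and annotation are not stated in the sources used here. Symbols and positions came from GENCODE annotation of GRCm38 and matched 21858 of 22070 identifiers.

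CPM were computed with library sizes taken over the genes that passed the filter and scaled by TMM factors. The main test was edgeR 4.0.16 in R 4.3.3 (filterByExpr, TMM, robust quasi-likelihood), 1 fit over the 41 groups with 10766 genes, Benjamini-Hochberg adjustment over all genes within each of 34 comparisons and a threshold of 0.05. The F tests span the 5 times. Alternatives were RLE size factors, no filter, DESeq2 1.42.0, a fit of the compared groups alone, a replicate block and leaving out libraries. The pipeline was tested on simulated data. Library numbers were not used as pairs: in 0 of 49 group pairs were all same-numbered deviations correlated above 0.1. That cut cannot show whether weaker pairing was present. For 25 against 0 µM at 30 min of TNF-α the correlations were 0.091, 0.133, 0.095 and 0.092. Between the labels at 360 min of 0 µM they were -0.066, -0.068, -0.030 and -0.069. Libraries of the same group shared no identical columns (246 pairs checked). Members, lists and tests were chosen with earlier results of these data known. All 6 members are named. Of the 23 pathway genes those called at 60 min are named, up to 4 per direction, and Rnf11 with TNF-α and Rbck1 with IL-1β at 100 µM and the genes at 120 and 360 min were named after their values were seen. Genes with a like pattern are the 5 with the highest correlation of group mean log2(CPM + 1) among genes reaching 5 CPM.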

Additional observations from a re-analysis of the deposited data

Results flagged for a closer look

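A library far from the other 3 of its group was looked for in 246 groups of values (6 members in 41 groups), and 16 had one. Chance gives about 1 in 20. In 3 cases it was number 1 of IL-1β 50 µM at 30 min, which holds 12191 counts. Tnfaip3 had 113 CPM there (others 15.1 to 23.9), while Itch and Cyld were at 0. In a library of this size 3 counts are worth 246 CPM by the unscaled total. The 113 CPM includes a TMM factor of 1.45, and on its scale this floor is lower.

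For Tnip1 the libraries were number 1 of IL-1β 50 µM at 60 min (64.7 CPM, others 56.3 to 57.1) and number 4 of TNF-α 100 µM at 15 min (53.0 CPM, others 42.4 to 43.8). For Tnip2 they were number 2 of IL-1β 50 µM at 60 min (17.9 CPM, others 12.2 to 12.8) and number 1 of TNF-α 100 µM at 15 min (14.8 CPM, others 19.3 to 19.97). For Itch it was the same number 1 of TNF-α 100 µM at 15 min (86.5 CPM, others 94.6 to 96.2). Tax1bp1 had all 4 of its cases at 60 min, in number 4 of IL-1β 50 µM (297 CPM, others 320.4 to 325), number 4 of TNF-α 25 µM (393 CPM, others 356 to 362), number 3 of TNF-α 50 µM (329 CPM, others 374 to 380.4) and number 4 of TNF-α 100 µM (391 CPM, others 344 to 351). Cyld stood out in number 3 of IL-1β 100 µM at 30 min (45.7 CPM, others 38.2 to 39.5), number 1 of TNF-α 25 µM at 30 min (26.8 CPM, others 38 to 39.5) and number 3 of TNF-α 100 µM at 120 min (53.5 CPM, others 33.5 to 36.7). In number 1 of IL-1β 0 µM at 60 min it had 45.2 CPM, others 27.6 to 30.3, and this library is one of the 4 against which the Cyld difference of 100 µM at 60 min is measured.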

How the results depend on the processing

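Of 55 called values of the members, 36 stayed called in all 11 alternatives and 19 lost their call in at least 1, and none changed direction. Of 605 alternative values 536 stayed on their side of the threshold and 69 did not, each given beside its result. Between the labels 5 calls became 2 with DESeq2 and 3 to 4 without 1 library number. For the 100 µM effect between the labels 0 calls became 1 without the filter, 1 with RLE size factors and 0 to 1 without 1 library number, in each case Tnfaip3. The cause was not tested. With the library number as a replicate block, the counts of calls were 17, 5, 5, 15, 10, 0 and 3 in the 7 families, equal to those without it. The mean correlation of same-numbered deviations was 0.0387 over the group pairs checked. RLE size factors moved the share of higher calls by over 10 points in 19 of 34 comparisons, to 68.7% higher against 42.4% at 360 min of TNF-α for 100 against 0 µM, where they moved the median of all genes by 0.125. The fit of the compared groups alone gave no Tnfaip3 value where the gene failed its filter. Tnfaip3 in unstimulated cells (25 counts) and Tnip2 are limited by depth.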
